A study of Rattus norvegicus with 6 samples.

Results

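The receptors through which brain cells read neurotransmitters and neuropeptides were taken from the deposited transcriptome annotation as every locus with a reference gene name that begins with a receptor family stem (for GABA, glycine, glutamate, acetylcholine, serotonin, dopamine, noradrenaline, adenosine and nucleotides, histamine, opioids, neuropeptide Y, somatostatin, neurotensin and cannabinoids), except Drd2. A locus is a group of transcripts that the assembly placed under 1 gene number. The rule found 57 gene names in 56 of the 24744 loci, and 56 of the names are receptors. The remaining name, Grina, belongs to a membrane protein named for an association with glutamate receptors, and its values are described apart. Its locus and isoforms are still included where receptor loci and isoforms are counted below, and in their shares and medians. Of the 56 loci, 48 passed the count filter (50 or more counts in 2 or more libraries of a strain). Gabre, Gabrq, Glra4, Chrnb4, Htr1d, Adra2b, Adora3 and Grm4 did not pass it, and Grm4 was represented only by a fragment of its locus with 5 to 18 counts per library.

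Polyadenylated RNA of whole brain was sequenced from 3 SHR rats (strain SHR/OlaIpcvPrin, the spontaneously hypertensive rat) and 3 BNLx rats (strain BN-Lx/CubPrin, a Brown Norway congenic line). All 6 animals were naive males, both strains are inbred, and each library came from its own rat, with no age stated. The comparison asked which receptor genes and which of their isoforms differ between the strains, with BNLx as the reference. A whole brain holds many cell types and regions, so fewer cells of a type and less RNA per cell cannot be told apart.

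Fast transmission rests on ligand-gated channels built from several subunits, such as the AMPA, kainate and NMDA receptors for glutamate, the GABA-A and glycine receptors that carry chloride, and the nicotinic receptors for acetylcholine. Slower signals pass through G protein-coupled receptors, which include the metabotropic glutamate receptors, the GABA-B receptor, the muscarinic receptors and almost all receptors for monoamines and peptides. Subunit composition, splice form and the length of the 3′ untranslated region are all known to vary between brain regions.

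Gene names were present in the annotation only for loci on some chromosomes, and no locus on chromosomes 1 and 10 to 19 carried a name. Of 144 protein-coding rat genes in RefSeq whose symbols fit the same stems, 71 lie on those chromosomes and were not analysed here, among them all 4 dopamine receptors of that list and 13 of its 21 GABA receptor genes. The receptors described below are therefore those that a name could reach, and not the whole receptor complement of the brain.

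Total expected counts ranged between 21745966 and 41333078 in the SHR libraries and between 11747048 and 32826625 in the BNLx libraries, and the receptor loci held 0.542 to 0.664% of them. A single library of each strain, replicate 1 in SHR and replicate 3 in BNLx, was unlike its strain. A chi-square of counts across loci, divided by its degrees of freedom, gave 143 and 154 for the pairs with the SHR library in question, against 10.5 for the remaining SHR pair, and 84.2 and 107 for the pairs with the BNLx library in question. Regional marker genes moved with this. The cortex and hippocampus marker Nrgn had 358, 1131 and 1184 CPM in the SHR libraries and 1708, 1801 and 99.3 CPM in the BNLx libraries, in order of replicate, and Lamp5 and Neurod6 were lowest in the same libraries. The striatal marker Penk had 560, 87.3 and 59.9 CPM in SHR and 130, 98.3 and 34.1 CPM in BNLx. The 2 named of 4 thalamic markers (Lef1 and Rora) summed to 25.8, 39.3 and 38.3 CPM in SHR and to 43.1, 47.1 and 196 CPM in BNLx. None of these markers was at 0 in any library. CPM here are counts scaled to library size with TMM factors, and the part of the 2 libraries in each strain difference is given below by the values with and without them.

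Levels of different genes were compared in TPM (transcript abundance scaled to library size and to transcript length), summed over the transcripts that carry a receptor's name or share exonic bases with such a transcript. By this measure 30 of the 57 names averaged over 10 TPM across the 6 libraries, 25 lay between 1 and 10 TPM, and Gabre and Glra4 were under 1 TPM. Gabbr1, the ligand-binding subunit of the GABA-B receptor, had the highest mean level, with 692 ± 32.9 TPM in SHR and 750 ± 215 TPM in BNLx (SD, n = 3 each). Grina followed with 573 ± 38.6 TPM in SHR and 575 ± 24.95 TPM in BNLx, and then came Grin1, the obligatory NMDA receptor subunit, with 317 ± 66.6 TPM in SHR and 282 ± 33.6 TPM in BNLx. Gria2, the AMPA receptor subunit that limits calcium entry, had 271 ± 59.6 TPM in SHR and 193 ± 74.3 TPM in BNLx. Ntsr2, the neurotensin receptor known from astrocytes, was next with 175 ± 39.0 TPM in SHR and 157 ± 33.9 TPM in BNLx. The library values of Gabbr1 and Grina overlapped, although Gabbr1 was above Grina within each library. The values of Grina lay above those of Grin1. From Grin1 through Gria2, Ntsr2, Gabbr2 and Glrb to Hrh3 the values of each gene overlapped with those of the next. Within each library Grin1 was above Gria2, Ntsr2, Gabbr2, Glrb and Hrh3. Neighbours among the genes after Grin1 changed places between libraries, so their order is not fixed by these data. Transcripts that carry the name held 9.68 to 17.3% of the locus counts for Hrh3 and 18.8 to 37.0% for Grin1. For Grin2b they held at most 0.0753%. The levels of these genes thus rest mostly on unnamed transcripts that share exonic bases with the named ones. At the low end lay Adora3, Adra2b and Gabrq, each under 2 TPM on average.

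**Figure D1:**
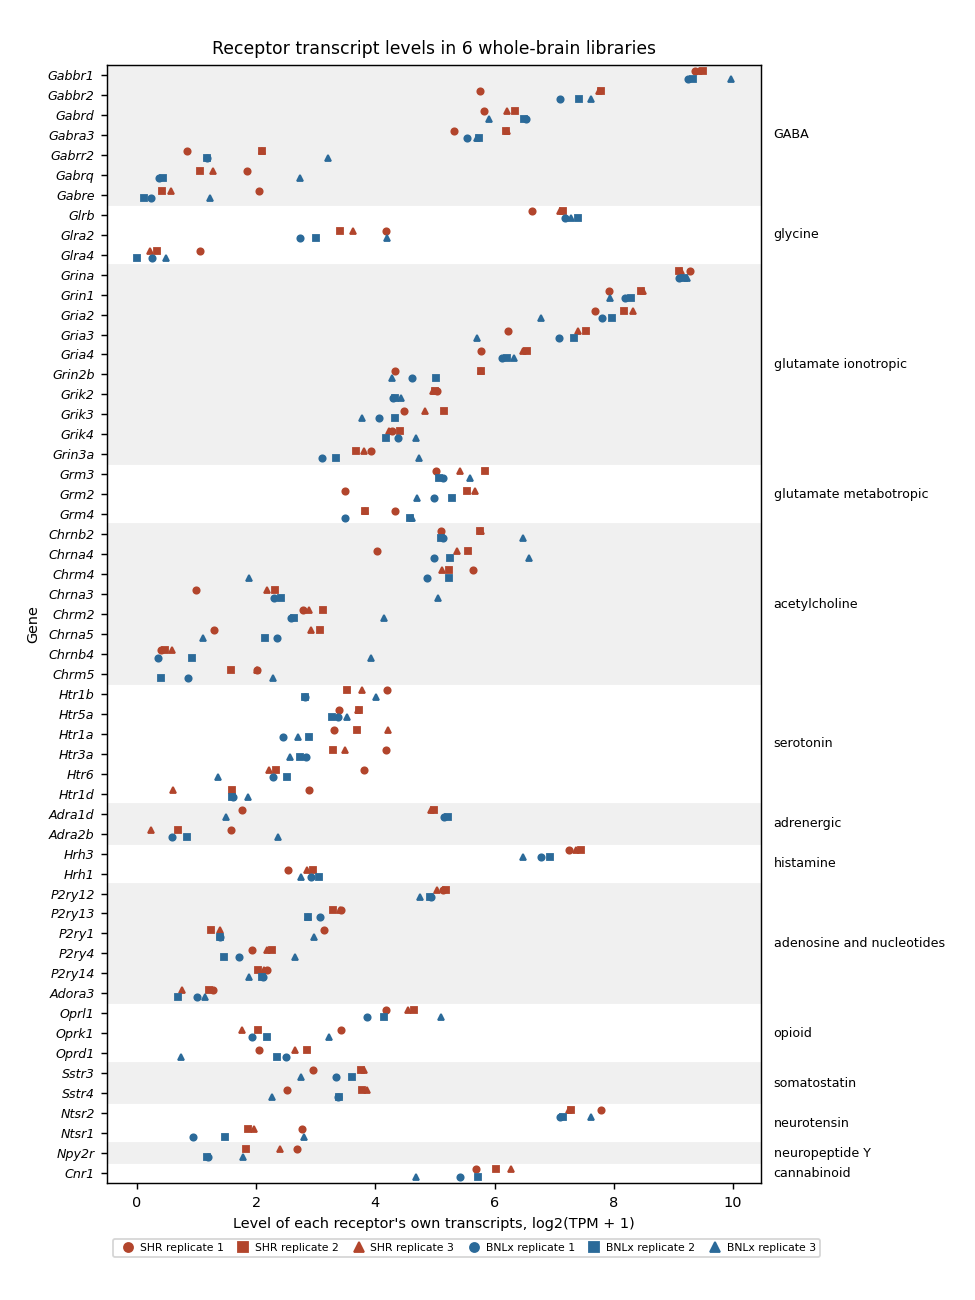
Levels of 56 of the 57 genes in 6 libraries as log2(TPM + 1), summed over each gene's own transcripts and grouped by transmitter, with SHR in red above BNLx in blue and 1 symbol per replicate. Gabbr1 and Grina lie at the top of the scale and Glra4 and Gabre near its bottom. Grm4 rests on 5 to 18 counts per library.

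In 5 cases a locus named for a receptor held mostly transcripts of something else. The receptor's own transcripts made up 1.64 to 9.57% of the locus counts for Htr6 (with Nbl1 and Micos10), 2.70 to 7.82% for P2ry4 (with Pdzd11), 0.912 to 10.4% for Chrm5 (with unnamed transcripts at chr3:103852023-103858480, beyond the 3′ end of Chrm5), 18.4 to 40.5% for Oprl1 (with Myt1, Pcmtd2 and Polr3k) and 23.3 to 33.3% for P2ry13, which shares its locus with P2ry12. Locus totals of these names do not describe the receptor, and values from the receptor's own transcripts are used for them below where the counts allowed it.

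No receptor locus was called different between the strains at an adjusted p of 0.05 by the quasi-likelihood test of edgeR, while 1.02% of all 14471 tested loci were called (0.504% with SHR higher and 0.511% with SHR lower). At an unadjusted p of 0.05, 8 of the 48 receptor loci passed (16.7% of them; 10.2% of all loci), 6 higher (5.11% of all loci) and 2 lower in SHR (5.11%). DESeq2 called 3 of the 48 (Grik2, Grik3 and Htr1a, all higher in SHR) and 3.76% of all loci (1.82% higher and 1.94% lower). The log2 fold changes, SHR over BNLx, ran between -1.90 and 1.38, with 28 above and 20 below 0 and a median of 0.10, against a median of 0.00 over all loci. The 3 SHR values and the 3 BNLx values did not overlap at 9 of the 48 loci (17.5% of all loci), 5 with SHR higher (8.97% of all loci) and 4 with SHR lower (8.49%). Among those with SHR lower, P2ry4 and Oprl1 are locus totals that are mostly not the receptor's own counts. The 95% intervals were wide, with a median width to each side of 0.81 on the log2 scale at receptor loci and 0.49 over all loci, so that smaller differences were mostly not detectable.

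With SHR replicate 1 and BNLx replicate 3 left out, 20 of the 48 receptor loci were called by edgeR (12 higher and 8 lower in SHR), against 28.8% of all loci (15.1% higher and 13.8% lower). The called loci were Gabra3, Gabrd, Gabrr2, Glra2, Glrb, Grik2, Grik3, Grin2b, Grin3a, Chrm5, Chrna3, Chrna5, Chrnb2, Htr1a, Htr6, Adra1d, Hrh1, Hrh3, Oprl1 and Cnr1. The calls of Chrm5, Htr6 and Oprl1 are of locus totals that are mostly not the receptor's own counts. The sign differed between the 2 fits at 14 of the 48 loci, and 3 of these, Gabrr2 (1.38, against -0.42 with all 6 libraries), Chrnb2 (0.50, against -0.20) and Grin3a (0.43, against -0.15), were called in the direction opposite to that of all 6 libraries. That fit rests on 2 libraries per strain, and the reasons for the difference between the 2 fits were not tested.

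**Figure D2:**
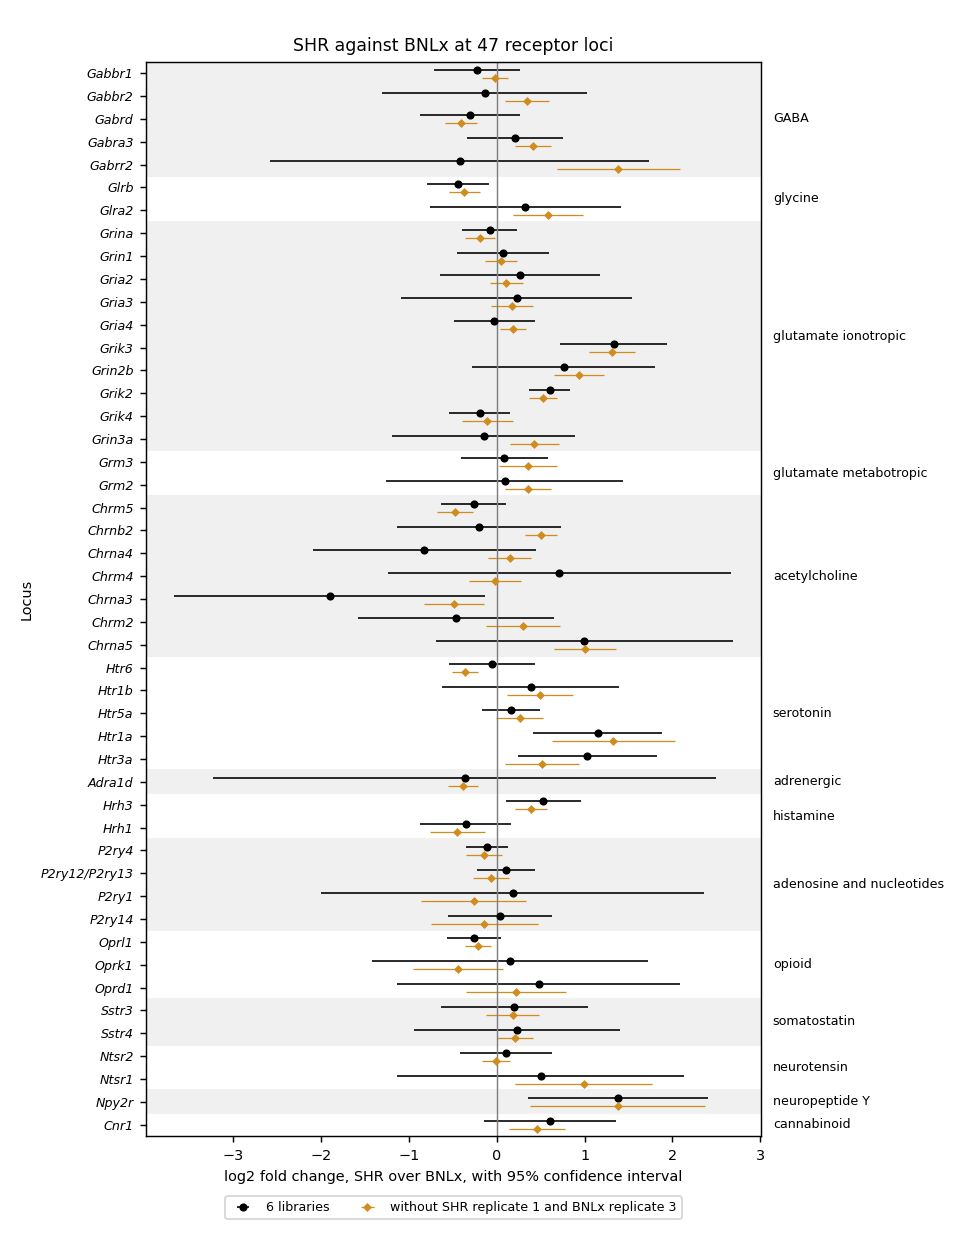
The log2 fold change of SHR over BNLx with its 95% confidence interval at 47 of the 48 tested receptor loci, from all 6 libraries (black circles) and without SHR replicate 1 and BNLx replicate 3 (orange diamonds). Grik2 has the narrowest interval among the loci with all 6 libraries that lie above 0.5, and most orange intervals are shorter than the black ones.

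Among the locus totals, those of the kainate receptor genes Grik2 and Grik3 came nearest to a call with all 6 libraries. The Grik3 total also holds transcripts of another gene, described below. Grik2 encodes a principal subunit of kainate receptors, which are glutamate-gated channels. It lies at chr20:53789760-54517709 on the minus strand (rn6), and its locus had 84.4, 75.5 and 76.7 CPM in the SHR libraries against 52.1, 53.3 and 50.3 CPM in the BNLx libraries. The strains were well apart, and neither SHR replicate 1 nor BNLx replicate 3 departed from its strain here. The log2 fold change was 0.60 (standard error 0.096) with an adjusted p of 0.0563 by edgeR, just outside the threshold, and an adjusted p of 2.11e-06 by DESeq2. It ran between 0.55 and 0.63 when single libraries were left out, and it was 0.53 with an adjusted p of 0.0056 by edgeR without both libraries that stand apart. Of its 4 isoforms past the filter, the long transcript STRG.56903.4 had a log2 fold change of 0.65 and a transcript of only 4 exons at the same 3′ end, STRG.56903.5, had 0.63, so the shift was of like size in both. Neither passed the isoform threshold by edgeR, and STRG.56903.4 passed it by DESeq2. These 2 isoforms held 38.0 to 43.1% and 38.9 to 40.5% of the locus counts in SHR, and 34.2 to 42.2% and 33.0 to 44.5% in BNLx.

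Grik3, another principal kainate receptor subunit (chr5:143500441-143720948, plus strand), showed how much a locus total can depend on a neighbour. The locus as deposited had 144, 223 and 197 CPM in SHR against 78.3, 91.4 and 54.4 CPM in BNLx, a log2 fold change of 1.33 with an adjusted p of 0.095 by edgeR. It joins the transcripts of Grik3 with those of AABR07049892.1, an annotated gene known only by a clone-based name that lies at chr5:143189243-143199835, upstream of Grik3. The AABR07049892.1 transcripts alone had 51.0, 87.5 and 84.6 CPM in SHR against 6.20, 7.76 and 3.01 CPM in BNLx, a log2 fold change of 3.71 that was called with an adjusted p of 0.0162 by edgeR when loci were split into groups of transcripts that share exonic bases. The Grik3 transcripts had 92.8, 136 and 112 CPM in SHR against 72.2, 83.7 and 51.4 CPM in BNLx. Their log2 fold change was 0.72 (standard error 0.23) with an adjusted p of 0.328 by edgeR, so the strains did not overlap but the difference was not called. The larger part of the difference at the locus lay in the AABR07049892.1 transcripts.

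Within Grik3 the largest difference in CPM was at an aptardi 3′ end. The program aptardi predicts 3′ ends from DNA sequence and read coverage and adds them to an assembled transcript. Isoform STRG.21950.4.2, which ends 5202 bases beyond the reference transcript, had 72.1, 117 and 92.2 CPM in SHR against 35.7, 47.5 and 38.0 CPM in BNLx (log2 fold change 1.21, adjusted p of 0.136 by edgeR). Isoform STRG.21950.4.3, which ends 5402 bases beyond the reference transcript, had 5.69, 0 and 0 CPM in SHR against 24.3, 25.4 and 9.47 CPM in BNLx. The first was higher in every SHR library and the second in every BNLx library, and neither passed the isoform threshold by edgeR with all 6 libraries. STRG.21950.4.2 passed it by DESeq2 (unadjusted p of 5.05e-06), and STRG.21950.4.3 by edgeR without SHR replicate 1 and BNLx replicate 3 (unadjusted p of 0.000113).

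Grik4, which encodes a further kainate receptor subunit, differed from both. Its locus had 28.6, 29.2 and 26.6 CPM in SHR against 32.6, 26.9 and 36.8 CPM in BNLx, and the strains overlapped (log2 fold change -0.19, standard error 0.14).

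**Figure D3:**
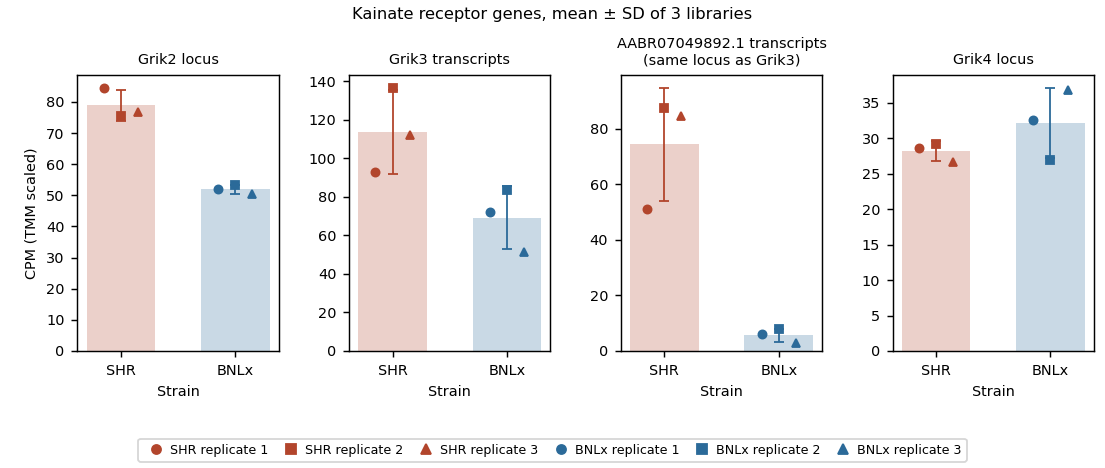
CPM of the Grik2 locus, the Grik3 transcripts, the AABR07049892.1 transcripts joined to Grik3 in the deposited locus, and the Grik4 locus, with SHR left of BNLx. Bars are means, error bars are SD of 3 libraries, and symbols are replicates. The strains do not overlap in the first 3 panels, and the widest gap is that of AABR07049892.1.

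The start regions of Grik2 and Grik3 are shown because the deposited loci with these names were nearest to a call. At the Grik3 locus the larger part of the difference lay in the AABR07049892.1 transcripts. The start regions differ in base composition. In RefSeq (build GRCr8) the 250 bases before the gene start are 49.6% G or C at Grik2 and 81.6% at Grik3, against a median of 51.2% over 33469 rat promoters. The GC box GGGCGG, searched on both strands, occurred 5 times in the Grik3 window and was not found in that of Grik2, and 30.5% of all promoters of the same length held it (22 of the 42 receptor genes with a RefSeq promoter). The letters TATAAA were in neither window. The stretch from 82 to 53 bases before each start (chr20:54415336-54415365, minus strand, for Grik2, and chr5:143052360-143052389, plus strand, for Grik3) is printed 5′ to 3′, with GC boxes in capitals.
Grik2: gtggctagctttcaacacctagtccttgca
Grik3: GGGCGGcagccgaagcgGGGCGGgcgccgg
A match is a description of these letters only, and the RefSeq starts were not compared with the transcript starts in these libraries.

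Among isoforms, 131 of the 239 isoforms of receptor loci passed the filter and 3 of them (2.29%) were called at an unadjusted p of 0.001 by edgeR, against 1% of all 32348 isoforms. All 3 belong to Gabbr2 or Glrb. None of the 36 tested aptardi isoforms of receptor loci was among them, which so few isoforms cannot set apart from the 1% called over all isoforms. DESeq2 called 11 receptor isoforms, 7 higher and 4 lower in SHR and 2 of them from aptardi, against 3.63% of all isoforms (1.8% higher and 1.83% lower). Without SHR replicate 1 and BNLx replicate 3 edgeR called 10 receptor isoforms, 7 higher and 3 lower and 2 of them from aptardi, against 2.92% of all (1.9% higher and 1.02% lower). Differences in isoform usage, tested per locus with diffSpliceDGE, were called at 4 of 28 receptor loci (14.3%), against 4.37% of 7742 loci: Gabbr2, Gria2, Glrb and the joint locus of P2ry12 and P2ry13. Without the same 2 libraries 10 receptor loci were called for usage, against 23% of all.

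The clearest strain difference concerned Gabbr2, the subunit of the GABA-B receptor that couples it to G proteins and pairs with Gabbr1. The locus (chr5:62276100-62621737, minus strand) holds 3 isoforms with the same first and last base. The reference transcript STRG.20462.3 has 19 exons. STRG.20462.1 and STRG.20462.2 have 20, because a gap of 20 bases (chr5:62276266-62276285) or 22 bases (chr5:62276264-62276285) interrupts the last exon. Such gaps are far shorter than typical mammalian introns. Of 209 spliced isoforms of receptor loci only these 2 contain a gap of 30 bases or fewer, against 0.494% of all 55281 spliced isoforms. The genome sequence at the gap was not analysed here.

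The reference isoform without the gap had 5.24, 12.4 and 4.14 CPM in SHR against 376, 441 and 484 CPM in BNLx. It fell by 5.90 on the log2 scale in SHR (standard error 0.53, adjusted p of 0.0222 by edgeR), and every library of a strain lay far from every library of the other. The call held in each fit that left out 1 library, but not without SHR replicate 1 and BNLx replicate 3 together (log2 fold change -5.63, unadjusted p of 0.0013 by edgeR). The isoform with the 22-base gap had 56.0, 143 and 192 CPM in SHR and was at 0 in all BNLx libraries. Set against 3 counts per library, its mean was at least 659-fold higher in SHR, and it was called at an unadjusted p of 0.00031 (adjusted p of 0.0534 by edgeR). That call was lost without SHR replicate 2 (unadjusted p of 0.0022), without SHR replicate 3 (0.0012) and with a replicate block (0.0022), all by edgeR. The isoform with the 20-base gap had 78.9, 363 and 322 CPM in SHR against 2.09, 3.05 and 0 CPM in BNLx, with an unadjusted p of 0.0021 by edgeR that missed the threshold. It was called by DESeq2 (unadjusted p of 2.03e-10) and by edgeR without SHR replicate 1 and BNLx replicate 3 (unadjusted p of 1.35e-05). The gap-free isoform thus held 3.74, 2.40 and 0.801% of the locus counts in SHR and 99.4, 99.3 and 100% in BNLx. The usage difference (adjusted p of 3.3e-05 by diffSpliceDGE) was called in every fit that left out 1 library, and in 3 of these 6 fits (without SHR replicate 2, SHR replicate 3 or BNLx replicate 2) Gabbr2 was the only receptor locus called.

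The Gabbr2 locus as a whole did not follow its isoforms. It had 137, 516 and 516 CPM in SHR against 369, 444 and 472 CPM in BNLx, a log2 fold change of -0.14 (standard error 0.48). SHR replicate 1 lay below the other 5 libraries, and without it the sign turned (log2 fold change 0.27).

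**Figure D4:**
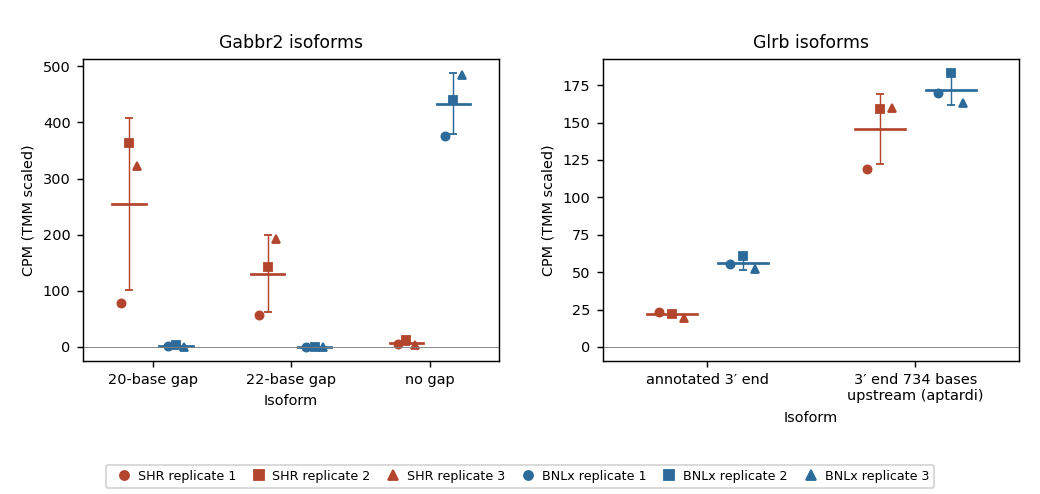
CPM of the 3 Gabbr2 isoforms (left) and of the 2 Glrb isoforms with counts (right), with SHR in red left of BNLx in blue. Lines are means, error bars are SD of 3 libraries and symbols are replicates. The gap-free Gabbr2 isoform is near 0 in SHR and the isoforms with a gap are near 0 in BNLx, while both Glrb isoforms are present in both strains.

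Gabbr1 did not share this pattern. Its locus on chromosome 20 had 1014, 953 and 958 CPM in SHR against 960, 977 and 1480 CPM in BNLx, with only BNLx replicate 3 apart, and a log2 fold change of -0.22 (standard error 0.20). Its main isoform STRG.55521.4 held 49.4 to 62.9% of the locus counts in SHR and 56.6 to 67.9% in BNLx. A shorter transcript that starts within the gene, STRG.55521.7, had 108, 206 and 171 CPM in SHR against 26.0, 36.0 and 239 CPM in BNLx. BNLx replicate 3 had the highest value of all 6 libraries, so the strains overlapped. Without SHR replicate 1 and BNLx replicate 3 this isoform was called (log2 fold change 2.60, unadjusted p of 0.00045 by edgeR), and usage at Gabbr1 was called both there and without BNLx replicate 3 alone.

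The GABA-A receptor subunits reached by a name were of moderate or low level. Gabrd, the delta subunit of extrasynaptic receptors, had 44.0, 58.0 and 54.5 CPM in SHR against 76.8, 72.1 and 43.9 CPM in BNLx. Gabra3, an alpha subunit that forms part of the benzodiazepine site, had 40.5, 68.5 and 71.6 CPM in SHR against 49.9, 56.0 and 50.4 CPM in BNLx. In both genes the overlap came from SHR replicate 1 or BNLx replicate 3, and without these libraries the log2 fold changes were -0.41 for Gabrd and 0.41 for Gabra3 (adjusted p of 0.0143 and 0.0188 by edgeR). Gabrr2, a rho subunit best known from retina, had 0.650 to 2.80 CPM in SHR and 1.05 to 6.16 CPM in BNLx.

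Glrb, the beta subunit through which glycine receptors are anchored at synapses (chr2:179769009-179842547, minus strand), differed in its 3′ ends. The reference isoform STRG.9887.1 had 23.6, 22.1 and 19.7 CPM in SHR against 55.6, 60.8 and 51.9 CPM in BNLx. It fell by 1.36 on the log2 scale in SHR (standard error 0.14, adjusted p of 0.0332 by edgeR), and no library, including the 2 that stand apart, crossed to the other strain. Its unadjusted p was just past the threshold of 0.001 without SHR replicate 2 (0.00102) and with a replicate block (0.0012), both by edgeR. The aptardi isoform STRG.9887.1.1 ends 734 bases upstream and had 119, 159 and 160 CPM in SHR against 170, 183 and 163 CPM in BNLx, with a log2 fold change of -0.24 that was not called. The reference 3′ end thereby held 16.6, 12.2 and 10.9% of the locus counts in SHR and 24.7, 24.9 and 24.2% in BNLx (adjusted p of 0.0112 for usage by diffSpliceDGE). The usage call was kept in 2 of the 6 fits that left out 1 library, those without SHR replicate 1 or BNLx replicate 3. An aptardi isoform ending 634 bases upstream, STRG.9887.1.2, was assigned no counts in any library. The locus as a whole had 139, 180 and 179 CPM in SHR against 220, 244 and 210 CPM in BNLx, with a log2 fold change of -0.44 (standard error 0.15, unadjusted p of 0.0225 and adjusted p of 0.364 by edgeR).

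The glycine receptor alpha subunit Glra2 had 25.02, 12.8 and 15.6 CPM in SHR against 8.70, 10.4 and 23.7 CPM in BNLx. It was highest in the 2 libraries that stand apart, 1 of each strain. Glra4 had 0.650 CPM or less everywhere. Gephyrin (Gphn), the scaffold that binds the beta subunit, had 68.7 to 90.2 CPM in SHR and 63.6 to 70.8 CPM in BNLx and was not called.

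Of the AMPA receptor genes, Gria2 (chr2:179584308-179704629) was called for isoform usage (adjusted p of 0.00615 by diffSpliceDGE over 11 isoforms), although its locus total did not differ (517, 751 and 773 CPM in SHR against 672, 743 and 285 CPM in BNLx, log2 fold change 0.26, standard error 0.38). The lowest unadjusted p among its isoforms was that of an unspliced aptardi isoform, STRG.9878.5.2, which extends the annotated microRNA Mir2985 in the same locus by 6190 bases towards the end of Gria2. It was at 0 in all SHR libraries and had 51.2, 128 and 0 CPM in BNLx. With 0 in BNLx replicate 3 as well, it varied within that strain too, and its unadjusted p was 0.031 by edgeR, while DESeq2 called it. A second unspliced isoform, STRG.9878.5.1, had 54.7, 46.0 and 33.0 CPM in SHR against 40.9, 5.31 and 45.9 CPM in BNLx. The isoforms that carry the spliced Gria2 message moved less. STRG.9878.1.1, which ends 854 bases upstream of the reference 3′ end, had 146, 214 and 197 CPM in SHR against 149, 156 and 74.8 CPM in BNLx. The call was absent in 5 of the 6 fits that left out 1 library and was kept without BNLx replicate 3.

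Gria3 and Gria2 were both lowest in SHR replicate 1 and BNLx replicate 3. Gria3 had 205, 537 and 491 CPM in SHR against 422, 489 and 142 CPM in BNLx. Gria4, by contrast, was low only in SHR replicate 1, with 83.1, 131 and 130 CPM in SHR against 114, 116 and 121 CPM in BNLx. Cacng2, an auxiliary protein that carries AMPA receptors to the membrane, had 51.8, 97.3 and 89.0 CPM in SHR against 93.4, 115 and 114 CPM in BNLx and was not called.

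The NMDA receptor gene Grin1 had 542, 726 and 758 CPM in SHR against 690, 745 and 491 CPM in BNLx (log2 fold change 0.07, standard error 0.22). Its isoform STRG.11919.2 was found only in BNLx replicate 3, with 53.4 CPM against 0 in the other 5 libraries. Grin2b, which encodes a glutamate-binding NMDA subunit, had 231, 656 and 662 CPM in SHR against 306, 384 and 224 CPM in BNLx, and it was again SHR replicate 1 that overlapped with BNLx. Without the 2 libraries its log2 fold change was 0.94 (adjusted p of 0.0056 by edgeR), against 0.76 with all 6. Grin3a, an NMDA receptor subunit, was highest in BNLx replicate 3 at 72.4 CPM, and the other 5 libraries lay between 24.1 and 42.5 CPM. Grina had 388 to 482 CPM in SHR and 439 to 461 CPM in BNLx.

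The metabotropic receptors Grm2 and Grm3, which inhibit glutamate release, did not differ beyond their spread. Grm2 had 17.1, 73.8 and 82.9 CPM in SHR against 56.4, 66.5 and 40.1 CPM in BNLx. Grm3 had 48.4, 78.4 and 59.9 CPM in SHR against 56.0, 51.7 and 67.9 CPM in BNLx. Both lay lowest of their strain in SHR replicate 1, and the log2 fold changes of 0.09 each carried standard errors of 0.56 for Grm2 and 0.21 for Grm3.

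No acetylcholine receptor locus was called with all 6 libraries. The nicotinic subunit Chrna3, which with the beta 4 subunit is concentrated in the medial habenula, had 2.60, 8.34 and 7.65 CPM in SHR against 10.8, 11.6 and 46.7 CPM in BNLx. The strains did not overlap, and the log2 fold change was -1.90 (standard error 0.73, unadjusted p of 0.039 and adjusted p of 0.451 by edgeR). Without the 2 libraries that stand apart it was -0.49 (adjusted p of 0.0469 by edgeR), so most of its size came from them. In BNLx replicate 3 the reference isoform held 93.7% of the Chrna3 locus counts, against 0 to 19.7% in the other 5 libraries. Chrnb4, which lies beside Chrna3 on chromosome 8, had 14.5 CPM in BNLx replicate 3 and 0.341 to 0.959 CPM in the other 5 libraries. Chrna5, the third gene of that cluster, went the other way, with 3.69, 15.4 and 15.1 CPM in SHR against 8.24, 6.80 and 1.92 CPM in BNLx. Its longest isoform STRG.31107.1 and the Chrna3 isoform STRG.31108.1 lie on opposite strands and overlap at their 3′ ends, and the libraries were unstranded, so reads there cannot be told apart.

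The subunits of the most common brain nicotinic receptor, Chrna4 and Chrnb2, were also highest in BNLx replicate 3. Chrna4 had 25.8, 65.5 and 61.4 CPM in SHR against 52.8, 62.5 and 155 CPM in BNLx. Chrnb2 had 33.0, 48.1 and 49.9 CPM in SHR against 35.5, 33.4 and 81.8 CPM in BNLx. Without the 2 libraries only Chrnb2 of this pair was called (log2 fold change 0.50, adjusted p of 0.0089 by edgeR), against -0.20 with all 6 libraries, so the sign turned. The muscarinic receptor Chrm4, prominent in striatum, had 61.0, 42.3 and 39.9 CPM in SHR against 37.4, 46.8 and 3.16 CPM in BNLx. The striatal marker Penk was likewise highest in SHR replicate 1 (560 CPM) and lowest in BNLx replicate 3 (34.1 CPM), and its part in the Chrm4 values was not tested. Chrm2 was highest in BNLx replicate 3 at 15.4 CPM and had 5.20 to 6.92 CPM elsewhere. Transcripts of Chrm5 itself reached 0.32 to 3.89 TPM.

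**Figure D5:**
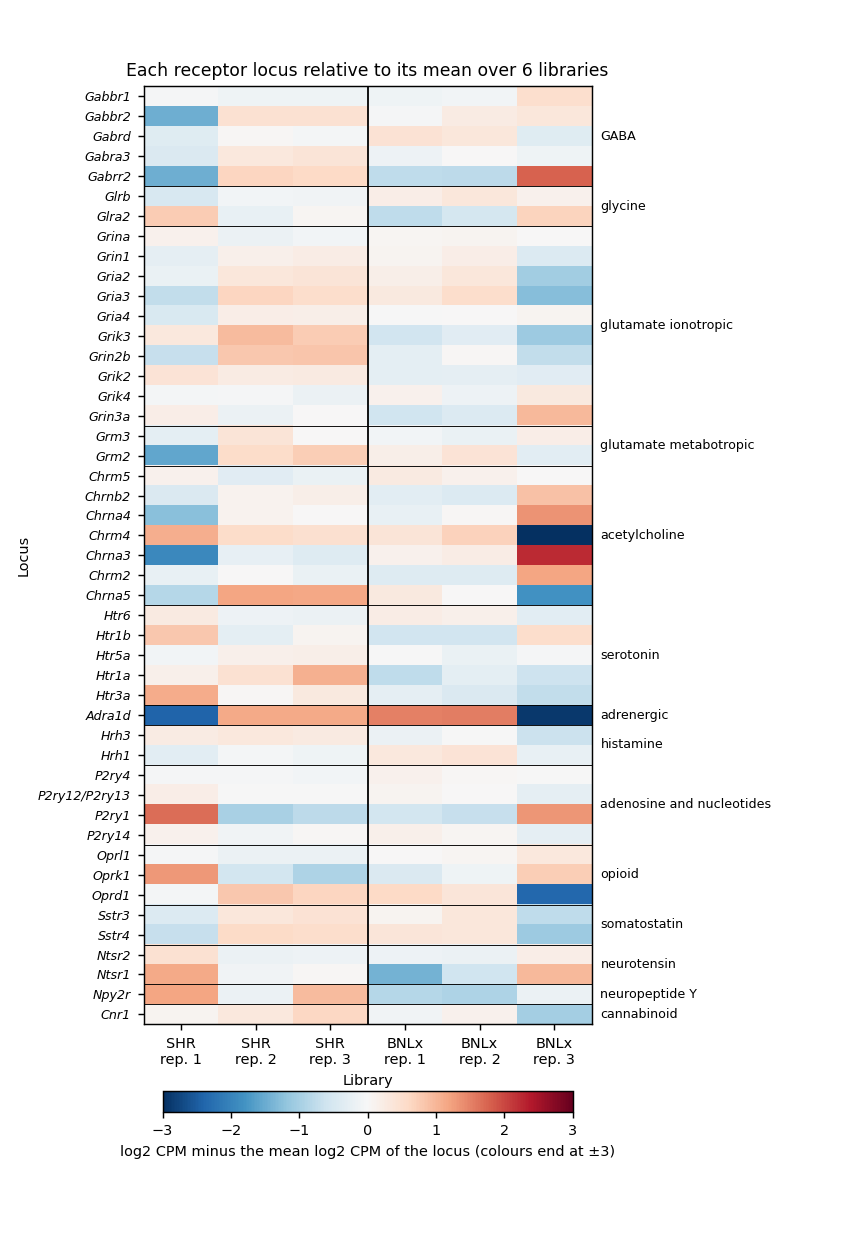
The log2 CPM of each of 47 of the 48 tested receptor loci minus its mean over the 6 libraries, with SHR libraries left of BNLx libraries and loci grouped by transmitter. Adra1d is low in SHR replicate 1 and BNLx replicate 3, P2ry1 and Oprk1 are high in both, and Chrm4 and Chrna3 depart in opposite directions in BNLx replicate 3.

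The 2 libraries that stand apart held the extremes at many receptor loci, as they did at many loci of the whole series. At 12 of the 48 tested receptor loci both of them lay below the other 4 libraries (16% of all loci), and at 9 both lay above (15.8% of all loci). The widest case was Adra1d, the alpha-1D adrenoceptor (chr3:124129558-124145566), with 3.25, 37.9 and 37.8 CPM in SHR against 49.2, 49.6 and 2.31 CPM in BNLx. The cortex and hippocampus marker Nrgn was lowest in the same libraries, and its part in the Adra1d values was not tested. The log2 fold change of Adra1d was -0.37 with a standard error of 1.18, and leaving out single libraries moved it between -0.92 and 0.16. Without both libraries it was -0.38 (adjusted p of 0.0141 by edgeR). Adra2b, the other adrenoceptor gene with a name, had 0.321 to 3.71 CPM in SHR and 0.991 to 7.39 CPM in BNLx.

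Of the serotonin receptors, Htr1a and Htr3a were higher in every SHR library than in any BNLx library. Htr1a, the inhibitory receptor found on raphe and hippocampal neurons, had 4.78, 5.83 and 8.89 CPM in SHR against 2.54, 3.49 and 2.77 CPM in BNLx. Its log2 fold change was 1.15 (standard error 0.30, adjusted p of 0.249 by edgeR and 0.0482 by DESeq2), and its lowest count in a library was 36. Htr3a, the ligand-gated serotonin channel, had 15.3, 7.30 and 8.71 CPM in SHR against 5.85, 5.23 and 4.23 CPM in BNLx (log2 fold change 1.03, standard error 0.33, adjusted p of 0.335 by edgeR). Without SHR replicate 1 and BNLx replicate 3 the log2 fold changes were 1.33 for Htr1a and 0.52 for Htr3a, with adjusted p of 0.0221 and 0.0694 by edgeR. Htr1b had 33.8, 15.8 and 20.5 CPM in SHR against 12.8, 12.99 and 27.9 CPM in BNLx, and Htr5a, the most even of the family, had 17.2 to 20.5 CPM in SHR and 15.9 to 17.9 CPM in BNLx. The transcripts of Htr6 had 20.8, 5.94 and 5.54 CPM in SHR against 6.64, 7.84 and 2.39 CPM in BNLx, a log2 fold change of 0.94 (standard error 0.67), whereas the locus that carries its name gave -0.05. Htr1d had 0.642 to 6.36 CPM in SHR and 2.09 to 2.46 CPM in BNLx.

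Of the 2 histamine receptors with a name, neither was called with all 6 libraries. Hrh3, the presynaptic autoreceptor (chr3:175473078-175479395, minus strand), had 177, 188 and 181 CPM in SHR against 133, 148 and 95.5 CPM in BNLx. All SHR libraries were above all BNLx libraries (log2 fold change 0.53, standard error 0.18, adjusted p of 0.364 by edgeR), and without the 2 libraries the log2 fold change was 0.39 (adjusted p of 0.0168 by edgeR). Its unnamed isoform STRG.15665.5 had 28.3, 27.1 and 27.8 CPM in SHR against 14.0, 15.8 and 16.7 CPM in BNLx (log2 fold change 0.84, unadjusted p of 0.0016 by edgeR), which missed the isoform threshold. DESeq2 called it (unadjusted p of 1.28e-07) together with STRG.15665.1, and usage at the locus was not called. Hrh1 had 8.01, 9.67 and 9.16 CPM in SHR against 12.5, 13.3 and 8.55 CPM in BNLx (log2 fold change -0.35, standard error 0.21). The histamine-forming enzyme Hdc was under the filter, with 0.0458 to 1.09 CPM in SHR and 0 to 9.55 CPM in BNLx.

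The purinergic receptors P2ry12 and P2ry13, which are markers of microglia, share 1 locus on chromosome 2. Together they had 35.4, 30.6 and 30.8 CPM in SHR against 33.0, 31.1 and 25.8 CPM in BNLx. The usage call at this locus (adjusted p of 0.0352 by diffSpliceDGE) was made over isoforms of both genes, and among the 6 fits that left out 1 library it was kept only without SHR replicate 1 or BNLx replicate 3. The reference P2ry12 isoform STRG.9388.2 had 10.8, 11.5 and 10.5 CPM in SHR against 6.69, 5.92 and 5.52 CPM in BNLx (log2 fold change 0.86, unadjusted p of 0.0054 by edgeR). The aptardi isoform STRG.9388.2.1, which ends 865 bases further downstream, had 11.7, 8.62 and 7.58 CPM in SHR against 14.6, 14.2 and 12.3 CPM in BNLx (log2 fold change -0.56). Neither passed the isoform threshold by edgeR, STRG.9388.2 passed it by DESeq2 (unadjusted p of 9.4e-05), and the strains were apart in both. Summed over its own transcripts P2ry12 had a log2 fold change of -0.03, and P2ry13 had 0.45 (10.98, 9.08 and 10.3 CPM in SHR against 8.16, 7.23 and 6.71 CPM in BNLx, unadjusted p of 0.033 by edgeR). The named microglia markers (Aif1, Cx3cr1 and C1qa, 3 of 5 listed) summed to 67.4 to 93.2 CPM in SHR and 61.2 to 67.4 CPM in BNLx, and none was called.

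P2ry1 was among the receptors high in both libraries that stand apart, with 14.0, 2.23 and 2.57 CPM in SHR against 3.00, 2.70 and 11.1 CPM in BNLx. P2ry14 had 2.18 to 2.55 CPM in SHR and 1.92 to 2.57 CPM in BNLx, and its small spread set it apart from P2ry1. P2ry4 itself had 1.40 to 1.71 CPM in SHR and 0.872 to 2.47 CPM in BNLx, under the filter, while the locus that carries its name had 29.97 to 30.5 CPM in SHR and 31.5 to 34.4 CPM in BNLx. Adora3 had at most 1.09 CPM.

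Among peptide receptors, Npy2r, a presynaptic neuropeptide Y receptor, had the largest log2 fold change among the tested receptor loci that were higher in SHR. It had 8.68, 3.37 and 7.38 CPM in SHR against 2.11, 2.00 and 3.39 CPM in BNLx, and BNLx replicate 3 lay just above the lowest SHR library. The log2 fold change was 1.38 (standard error 0.42, unadjusted p of 0.0161 and adjusted p of 0.322 by edgeR). Its ligand gene Npy had 55.2, 36.7 and 34.3 CPM in SHR against 75.7, 62.8 and 7.01 CPM in BNLx. The neurotensin receptors differed in level, Ntsr2 being far above Ntsr1 in TPM, and both were high in SHR replicate 1 and BNLx replicate 3. Ntsr2 had 135, 86.9 and 87.97 CPM in SHR against 88.3, 87.3 and 113 CPM in BNLx, and without these libraries its log2 fold change was -0.01. Ntsr1 had 9.89, 4.17 and 4.58 CPM in SHR against 1.67, 2.96 and 8.78 CPM in BNLx.

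Among the opioid receptor genes Oprl1, the nociceptin receptor, had 13.5 to 33.3 TPM over its own transcripts and was highest in each library. Its named transcripts alone had 6.60 to 12.6 TPM. Oprk1 had 2.39 to 9.67 TPM and Oprd1 0.670 to 6.23 TPM, and these ranges overlapped. Oprk1 was above Oprd1 in SHR replicate 1 and BNLx replicate 3 and below it in the other libraries. Oprk1, the kappa receptor, had 21.1, 5.88 and 4.54 CPM in SHR against 6.41, 7.85 and 14.4 CPM in BNLx. Its ligand precursor Pdyn had 146, 37.9 and 26.8 CPM in SHR against 54.6, 49.7 and 2.69 CPM in BNLx, so both were highest in SHR replicate 1, while in BNLx replicate 3 Oprk1 was high and Pdyn lowest. Oprd1, the delta receptor, had 1.90 to 3.46 CPM in SHR and 0.385 to 3.00 CPM in BNLx. The locus named for Oprl1 had 205 to 227 CPM in SHR and 234 to 287 CPM in BNLx without overlap, but most of its counts belonged to neighbouring genes. The somatostatin receptors Sstr3 and Sstr4 were lowest of their strain in SHR replicate 1 and BNLx replicate 3. Sstr3 had 12.2, 20.6 and 21.99 CPM in SHR against 17.3, 20.6 and 9.70 CPM in BNLx. Sstr4 had 13.4, 32.4 and 31.5 CPM in SHR against 27.9, 27.4 and 10.2 CPM in BNLx.

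Cnr1, the cannabinoid receptor of presynaptic terminals (chr5:49311030-49333056, plus strand), had 132, 155 and 192 CPM in SHR against 116, 137 and 61.4 CPM in BNLx. BNLx replicate 2 overlapped with SHR replicate 1, and the log2 fold change was 0.61 (standard error 0.31, adjusted p of 0.589 by edgeR). Without SHR replicate 1 and BNLx replicate 3 it was 0.46 (adjusted p of 0.0451 by edgeR). Of the 6 genes on the cannabinoid pathway list, 3 carried a name (Mgll, Faah and Napepld, for endocannabinoid synthesis or breakdown) and none was called.

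Over all transmitter pathway lists, which hold genes for synthesis, transport, ligands and receptor scaffolds, 35 of 83 genes carried a name and 31 were tested. None was called by edgeR (1.02% of all loci), and their median log2 fold change was 0.15, against 0.00 over all loci. Lhfpl4, which helps to place GABA-A receptors at synapses, had the lowest unadjusted p of the scaffold list and was chosen here for that. It had 62.5, 72.7 and 70.9 CPM in SHR against 43.9, 49.3 and 50.5 CPM in BNLx (log2 fold change 0.52, standard error 0.11, adjusted p of 0.141 by edgeR).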

How the data were processed

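Polyadenylated whole-brain RNA of 3 SHR and 3 BNLx rats was sequenced, 1 library per rat, in lanes whose sharing is not given per library. The authors trimmed reads with cutadapt, aligned them with HISAT2 to strain-specific genomes derived from rn6, built a transcriptome with StringTie 1.3.5 on the Ensembl annotation, extended it by aptardi 3′ ends and quantified it with RSEM. The deposited tables hold RSEM expected counts and TPM, as the authors made them, per isoform and per locus. The rat libraries were unstranded, and a locus can join neighbouring genes.

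Expected counts were rounded. Loci and isoforms reaching 50 counts in 2 or more libraries of a strain were tested two-sided over all features with edgeR 4.0.16 (quasi-likelihood, TMM, R 4.3.3), with Benjamini-Hochberg adjustment. Loci and usage (diffSpliceDGE) were called at an adjusted p of 0.05, isoforms at an unadjusted p of 0.001. CPM are TMM scaled. A fold against a strain at 0 was set against 3 counts per library. Alternatives included DESeq2 1.42.0, limma 3.58.1, other filters, a replicate block, single libraries left out and, chosen after seeing the data, loci split by shared exonic bases. Fits were tested on simulated data.

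Members, lists and tests were chosen with earlier results of these data known. Genes were named by rule where a call was made, or as the highest in TPM or the lowest p without overlap in a transmitter system, or from the study's own list, and other genes named were chosen after their values were seen. Chromosomes without gene names were not analysed here. Some genes, among them 1 receptor locus left out of the plots, are counted in the totals but not reported here by name.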

Additional observations from a re-analysis of the deposited data

How the results depend on the processing

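Of the counts of receptor features called, DESeq2 gave 3 loci and 11 isoforms (3.76% and 3.63% of all features). An unadjusted p of 0.001 by edgeR gave 1 locus (193 of all 14471 loci), and limma on voom weights gave 2 loci for usage (172 of all 7742). Leaving out SHR replicate 1 and BNLx replicate 3 together gave 20 loci, 10 isoforms and 10 loci for usage (28.8%, 2.92% and 23% of all). With single libraries left out the counts ran between 0 and 0 for loci, against 12 to 156 of all 14471. They ran between 1 and 5 for isoforms (183 to 400 of all 32348) and 1 and 7 for usage (204 to 577 of all 7742). Correlations of deviations between rats with the same replicate number were -0.08, 0.36 and -0.26. These values, from 3 rats per strain, cannot decide whether replicate numbers pair the rats. With a replicate block 1 isoform (48 of all 32348) and 2 loci for usage (314 of all 7742) were called, and no locus total (0 of all 14471). Without both libraries the log2 fold change changed sign at 14 of the 48 loci, among the genes named by rule at Gabbr2 (0.34), the P2ry12 and P2ry13 locus (-0.066) and Ntsr2 (-0.0073), and with split loci at P2ry12 (-0.027) and Htr6 (0.94). With single libraries left out it ran between -0.92 and 0.16 for Adra1d, -0.34 and 0.0090 for Gabbr1, -0.39 and 0.27 for Gabbr2, -0.055 and 0.51 for Gria2, -0.087 and 0.21 for Grin1, -0.11 and 0.24 for Grm3, -0.21 and 0.044 for Htr6, -0.14 and 0.24 for Ntsr2 and -0.051 and 0.43 for Sstr3. The causes were not tested. Usage was not run without a count filter. The number of rats (3 per strain) and the spread of the 2 libraries that stand apart limit what was detectable.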
